A study of Homo sapiens with 12 samples.

Results

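The genes described are those of the cytosolic ribosome and of the factors that load it, start it and move it along an mRNA. They were chosen by name: every symbol of a large or small subunit ribosomal protein (RPL and RPS numbers, RPLP0 to RPLP2 and RPSA) and every symbol that begins with EIF and a number from 1 to 6, or with EEF1 or EEF2, with EIF1AY left out. Of the 23368 symbols in the count tables, 146 matched, and the 134 with a CPM (counts per 1e6 counts of a library) of at least 1 in 3 or more of the 12 libraries were kept. They comprise 75 ribosomal protein genes (45 of the large and 30 of the small subunit), 52 initiation factor symbols and 7 elongation factor symbols. The rule uses names and a minimum level, and no difference between groups. The lowest levels just inside the limit were those of EIF5AL1 and EIF5A2, which reached 3.09 and 5.57 CPM in their highest library. Just outside it lay EEF1A2 and EIF4EBP3, which reached 1.33 and 1.14 CPM and passed 1 CPM in 2 libraries each. The other symbols left out include EIF4A1, EIF3CL and EEF1E1-MUTED, listed at 0 in every library, and EIF3C, EIF3IP1, EIF4E1B, EIF4E3, EEF1DP3 and RPL21.

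Messenger RNA came from SUDHL6, an established human cell line of diffuse large B-cell lymphoma of the germinal centre type. The 4 groups of 3 libraries each were cells given 200 nM GSK591 for 96 h, cells given vehicle (0.01% DMSO) for 96 h, cells given GSK591 for 24 h and cells given vehicle for 24 h. GSK591 is a small-molecule inhibitor of PRMT5, the main enzyme that places symmetric dimethyl marks on arginines of proteins, among them the spliceosomal Sm proteins and the ribosomal protein RPS10. All groups share this 1 line, so nothing here speaks for other lymphomas. The labels do not state whether a group's 3 libraries were grown as separate cultures. The p-values then measure the spread between these libraries, which may be technical.

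The ribosome is a small subunit, which reads the mRNA, joined to a large subunit, which forms the peptide bonds. Initiation factor eIF2 brings the initiator tRNA, eIF4 proteins recruit the capped mRNA, eIF3 holds the small subunit, and eIF2B recharges eIF2 with GTP, a step that 4 kinases shut down under stress by phosphorylating eIF2. Elongation factor eEF1A then delivers each aminoacyl-tRNA and eEF2 moves the ribosome forward. Growing lymphoid cells put a large share of their mRNA into ribosomal proteins. Many of these mRNAs start with a C followed by an unbroken run of pyrimidines, the 5′ terminal oligopyrimidine (TOP) motif, through which the growth kinase mTORC1 and the RNA-binding protein LARP1 set their translation and stability.

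The transcript starts of 12 members with marked changes give examples with and without the TOP motif. Each window below runs 5′ to 3′ along the gene's strand, with 20 bases before the annotated start and the first 10 transcribed bases, from the RefSeq promoter table of GRCh38.p14. Capitals mark the run of C and T that begins at the start base, as far as the window shows it. Where a gene had more than 1 annotated start, a start with the motif was preferred, then the one with the longest such run. This choice applied to RPL10 (3 starts), EEF1B2 (2 starts) and EIF2B4 (2 starts). For ribosomal proteins the windows are chrX:154398357-154398386 on the plus strand for RPL10, chr3:40457319-40457348 on the plus strand for RPL14, chr5:150449730-150449759 on the minus strand for RPS14 and chr9:19380227-19380256 on the minus strand for RPS6. For elongation factors they are chr6:73521023-73521052 on the minus strand for EEF1A1 and chr2:206159875-206159904 on the plus strand for EEF1B2. For initiation factors they are chr1:206612456-206612485 on the minus strand for EIF2D, chr14:75002901-75002930 on the plus strand for EIF2B2, chr2:27370016-27370045 on the minus strand for EIF2B4 and chr2:88627455-88627484 on the minus strand for EIF2AK3. For elongation and initiation factors without the motif, chr16:22206258-22206287 on the plus strand for EEF2K and chr15:39934095-39934124 on the plus strand for EIF2AK4 are also shown. At 96 h, 7 of the 12 genes shown start with the motif and were called lower, while of the 5 without it EIF2B2 and EEF2K were called lower and EIF2B4, EIF2AK3 and EIF2AK4 higher. The 12 were picked for their changes, so they do not show how often the motif goes with a fall.
RPL10: atgcgcaggcggaggagcgcCTCTTTCCCT
RPL14: gggttgggcgggtcttcttcCTTCTCgcct
RPS14: tcgctccgccccctcccactCTCTCTTTCC
RPS6: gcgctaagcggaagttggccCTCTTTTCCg
EEF1A1: cagtagtcgccgtgaacgttCTTTTTCgca
EEF1B2: attttccggtctcttcgggtCCTTTTTCCT
EIF2D: gccctggtttccagccgggcCCTTTTCgcg
EIF2B2: aagccgacctcgcccgccccggaagtgcaa
EIF2B4: ctcgcctcgcgcctgccggcggatccgtgg
EIF2AK3: caatgggcgatgtccgagataggctgtcac
EIF2AK4: accgcccatagcccgtccccagcgcggagc
EEF2K: gcccctgcccgcccgcttctgctcaaccta

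A TOP start was counted where a C at an annotated start base was followed by at least 4 bases that were each C or T, read along the gene's strand. Such a start was found for 45 of the 61 ribosomal protein genes with an entry in that table (73.8%), for 9 of 40 initiation factor symbols (22.5%) and for 3 of 6 elongation factor symbols (50%), against 1404 of all 27305 genes (5.14%). A match describes the annotated letters and does not show which start these cells use. The counts themselves were made on another build, hg19, per the submitters' processing notes, so the windows serve for their sequence alone.

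Library totals lay between 48.5 and 64.4 M counts in 11 libraries, and the total of vehicle replicate 1 at 96 h was 547.9 M, or 10.2 times their median. The biological coefficient of variation, the typical spread of a gene between libraries of a group, was 8.19% at 96 h and 2.35% at 24 h. The B-cell markers MS4A1, CD79A, CD79B, PAX5, BCL6 and CD22 averaged 195 to 4490 CPM over the groups. None of the 14 markers measured for T-cell, myeloid, fibroblast or epithelial identity averaged above 0.888 CPM in any group.

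After 96 h of GSK591 the translation machinery took a smaller share of the mRNA counts than in vehicle cells. All 134 members together took 14.4, 15.7 and 15.6% of the counts in the GSK591 libraries, against 16.5, 18 and 16.5% in the vehicle libraries, and the groups did not overlap. Ribosomal proteins took 11, 12.1 and 12% in the GSK591 libraries, against 12.5, 13.7 and 12.5% in the vehicle libraries. Initiation factor symbols took 1.32, 1.32 and 1.35% with GSK591 and 1.41, 1.46 and 1.39% with vehicle. Elongation factor symbols took 2.09, 2.36 and 2.26% with GSK591 and 2.58, 2.82 and 2.57% with vehicle, so each class was lower in every GSK591 library than in every vehicle library. After 24 h the shares of the groups overlapped, with 16.4, 16.7 and 16.6% for all members in GSK591 libraries and 16.5, 16.7 and 16.1% in vehicle libraries. In bulk RNA, a lower share in each cell and fewer cells with a high share cannot be told apart.

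**Figure D1:**
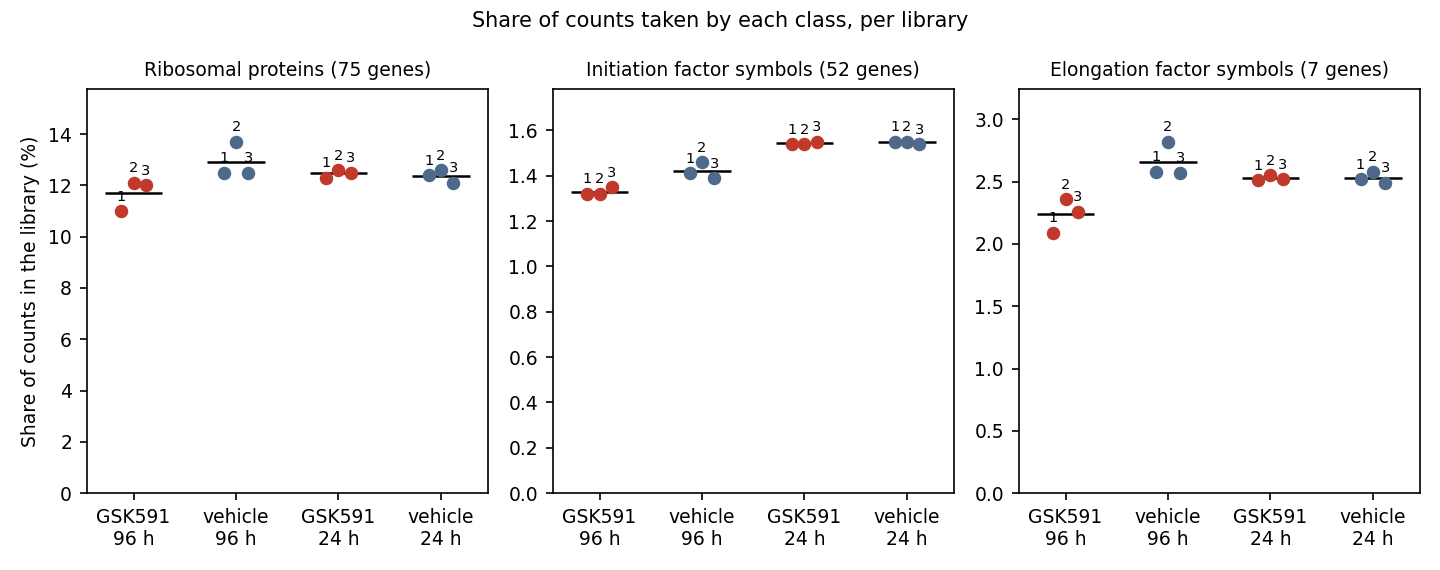
Share of each library's counts (percent, y axis) taken by the 3 classes in the 4 groups (x axis); points are libraries with their replicate number and lines are group means. At 96 h every GSK591 library lies below every vehicle library in each class, and vehicle replicate 2 is the highest.

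At 96 h, 11 of the 75 ribosomal protein genes fell with GSK591 and 64 did not pass the test. Their median log2 fold change of GSK591 over vehicle was -0.12, with the middle 50% between -0.19 and -0.07, where the median of all 13514 genes tested was 0. Of the 75 genes, 70 lay below 0 and 5 above. By edgeR's quasi-likelihood test with Benjamini-Hochberg adjustment over all genes tested, 11 were lower and none higher at an adjusted p under 0.05 (called), or 14.7% of the class. Over all genes 19.6% were called lower and 20.7% higher (40.2% in either direction), so in this fit the ribosomal share lay below that of all genes in both directions. At an unadjusted p under 0.05, 28 were lower and 0 higher. No share of all genes was taken at that threshold, here or below, so such counts have no background to be read against. Whether the ribosomal share called lower lay below that of all genes depended on the fit. DESeq2 called 19 lower (25.3%, against 20.1% of all genes) and 0 higher, and a fit with no filter 23 (30.7%, against 16.1% of 18578 genes). The replicate block gave 28 lower (37.3%, against 23%) and all 12 libraries in 1 fit 40 (53.3%, against 28.3%). The share stayed below that of all genes with RLE factors (14.7%, against 19.2%) and with TMM factors from the other genes (17.3%, against 20.2%). It did so too with a filter at 5 CPM (13.3%, against 22%) and with vehicle replicate 1 thinned (14.7%, against 19.2%). In 32 of the 75 genes every GSK591 library lay below every vehicle library and in 1 gene above, against 28% and 26.9% of all genes. Of the large subunit, 7 of 45 genes were called lower around a class median of -0.14, and of the small subunit, 4 of 30 around -0.11. Scaling by library size alone called 14 lower and 0 higher at the same median of -0.12, with 19.5% of all genes lower and 20.3% higher (39.9% in either direction).

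RPL14, a large-subunit protein, fell furthest. It stood at 484, 601 and 539 CPM (with TMM scaling, as for all CPM of single genes that follow) in the GSK591 libraries, against 678, 792 and 670 CPM in the vehicle libraries. The groups did not overlap, and the log2 fold change was -0.40 ± 0.09 (standard error; adjusted p = 0.0105). RPL10, a large-subunit protein added late in the assembly of the subunit, was at 1630, 1761 and 1782 CPM in the GSK591 libraries, against 2084, 2399 and 2109 CPM in the vehicle libraries. Again the groups were apart, with a log2 fold change of -0.35 ± 0.07 (adjusted p = 0.00651). RPS14, the small-subunit protein whose loss on chromosome 5q drives a form of anaemia, was at 779, 955 and 887 CPM in the GSK591 libraries, against 1047, 1241 and 1033 CPM in the vehicle libraries. Its log2 fold change was -0.34 ± 0.10 (adjusted p = 0.0207). RPS6, the classic substrate of S6 kinase, was at 4610, 5284 and 5126 CPM in the GSK591 libraries, against 5689, 6666 and 5685 CPM in the vehicle libraries, a log2 fold change of -0.26 ± 0.09 (adjusted p = 0.0362). RPS2, which lines the channel through which the mRNA enters, fell by 0.24 on the log2 scale (adjusted p = 0.046). The other 6 called genes, named after their values were seen, were RPL10A (-0.32), RPL3 (-0.32), RPL13A (-0.28), RPL24 (-0.23), RPL6 (-0.20) and RPS26 (-0.18).

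Among the members followed at both times that did not pass here, RPLP0, the base of the acidic stalk that recruits elongation factors, was at 3638, 4354 and 4046 CPM in the GSK591 libraries, against 4503, 5184 and 4455 CPM in the vehicle libraries. Its groups did not overlap, yet its log2 fold change of -0.23 ± 0.09 had an adjusted p of 0.0628. Its stalk partners stood near 0, with -0.01 for RPLP1 and 0.007 for RPLP2. RPL22, which is often lost or mutated in lymphoid tumours, had a log2 fold change of -0.17 ± 0.07 (adjusted p = 0.0954). RPS10, a known PRMT5 substrate, had the highest value of the class at 0.16 ± 0.09 (adjusted p = 0.202). RPS10 lay at 5.95, 5.71 and 6.05 CPM in the GSK591 libraries, against 5.16, 5.55 and 5.18 CPM in the vehicle libraries, with no overlap. RPS10, RPL17 and RPL36A have near-identical copies or readthrough symbols with which the authors' counting could split reads, so their values are uncertain.

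The size of the ribosomal protein change rested on which libraries were compared. Against the mean of the vehicle libraries, the median ribosomal protein gene lay at -0.23, -0.10 and -0.08 (log2) in GSK591 replicates 1, 2 and 3, while the vehicle replicates themselves lay at -0.06, 0.11 and -0.06. Without vehicle replicate 2 the median log2 fold change was -0.08 with 4 genes called lower, and without GSK591 replicate 1 it was -0.09 with 4 called. Without GSK591 replicate 3, 5 were called, without vehicle replicate 1 or vehicle replicate 3, 7 were called, and without GSK591 replicate 2, 25 were called. Of all genes, 12% were called lower without vehicle replicate 2 and 12% without GSK591 replicate 1. Without GSK591 replicate 3, vehicle replicate 1 or vehicle replicate 3 it was 12.2, 13.7 and 14.2%. Without GSK591 replicate 2 it was 28.1%. The calls of RPL10, RPL10A, RPL13A and RPL14 were kept in all 16 other fits. The calls of RPS14 and RPL24 were lost when GSK591 replicate 1, GSK591 replicate 3 or vehicle replicate 2 was left out. RPL3 and RPS6 lost theirs without the same libraries, RPL3 also without vehicle replicate 3 and RPS6 also without vehicle replicate 1. Log2 fold changes over the 16 fits ran from -0.42 to -0.25 for RPS14, from -0.27 to -0.16 for RPL24, from -0.42 to -0.24 for RPL3 and from -0.31 to -0.19 for RPS6. RPS2 and RPL6 lost their calls without any 1 library other than GSK591 replicate 2, and RPS26 without GSK591 replicate 1 or any 1 vehicle library. Their values ran from -0.32 to -0.18, from -0.24 to -0.14 and from -0.22 to -0.13, and RPS2 also lost its call with a filter at 5 CPM.

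Within the class, genes with longer coding sequences tended to lie lower. Across the 75 ribosomal protein genes, coding length (GENCODE v29) and the 96 h log2 fold change had a Spearman rho of -0.44 and a Pearson r of -0.43, a description over genes of the same libraries that are not independent. The 25 shortest (75 to 399 bases) had a median of -0.10, the 25 in the middle (405 to 576 bases) -0.11 and the 25 longest (582 to 1281 bases) -0.19. RPL3 and RPL4, the longest, stood at -0.32 and -0.22, and RPL41, the shortest, at -0.15. The deviation of a library from the mean of its own group also followed length, with rho from -0.47 in GSK591 replicate 3 to 0.34 in GSK591 replicate 2 at 96 h and up to 0.42 in vehicle replicate 3 at 24 h. Relations of this size were thus also present between libraries of the same group. Among the 47 initiation factor symbols with a coding length, rho was 0.4, of the opposite sign.

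**Figure D2:**
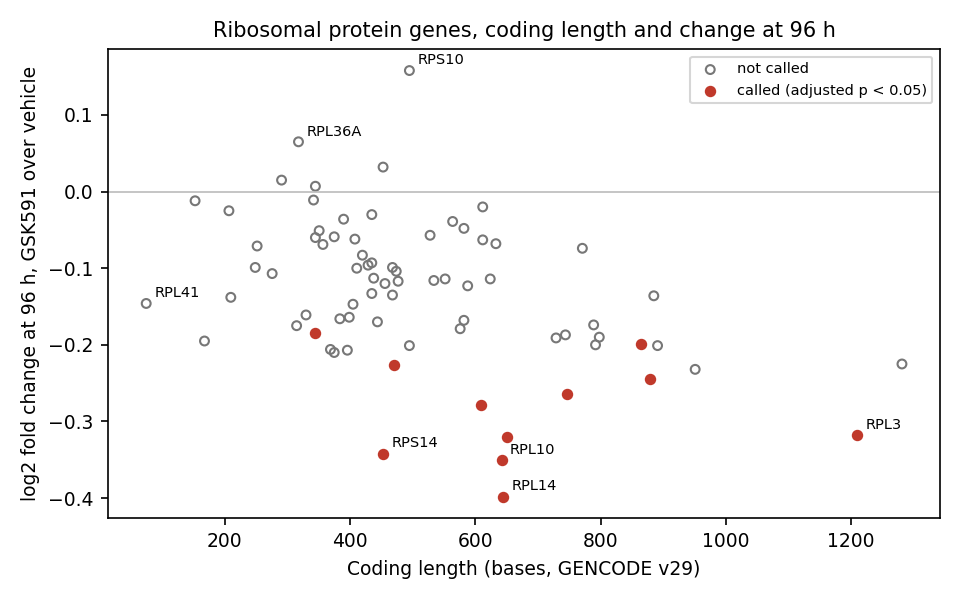
Log2 fold change of GSK591 over vehicle at 96 h (y axis) against coding length in bases (x axis) for the 75 ribosomal protein genes; filled points passed the test. Most points lie below 0, with the longest genes, RPL3 among them, in the lower part.

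Ribosomal protein genes with and without a TOP start had similar medians. At 96 h the 45 with such a start had a median log2 fold change of -0.13 with 6 called lower, and the 16 without it had -0.17 with 4 called lower. Of all genes, 19.6% were called lower. For initiation factor symbols the medians were -0.19 over 9 genes with the start and -0.10 over 31 without. These subsets are listed as counts and medians, and their differences were not tested. The split rests on the annotated start base alone, so genes without a match may still use a TOP start in these cells. The medians therefore cannot show whether the motif matters.

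Initiation factor symbols changed in both directions at 96 h, over a range of log2 fold changes from -0.60 to 0.64, where ribosomal proteins ran from -0.40 to 0.16. Of the 52, 17 were called lower (32.7%, against 19.6% of all genes) and 4 higher (7.69%, against 20.7% of all genes), and the median log2 fold change was -0.11. In 27 of them (51.9%) every GSK591 library lay below every vehicle library, and in 10 (19.2%) above, against 28% and 26.9% of all genes. Library size alone called 20 lower and 4 higher, and DESeq2 19 lower and 5 higher. With TMM scaling the 4 called higher were EIF2C3 (Argonaute 3, at 0.64), the eIF2 kinases EIF2AK3 and EIF2AK4, and the eIF2B subunit EIF2B4. Members of the same complex went opposite ways, most plainly in eIF2B.

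The 5 subunits of eIF2B, the exchange factor that recharges eIF2, split into 1 called higher, 2 called lower and 2 not called. EIF2B4, the delta subunit of its regulatory core, was at 91.9, 75 and 87.1 CPM in the GSK591 libraries, against 59.8, 54.9 and 58.1 CPM in the vehicle libraries. Every GSK591 library was above every vehicle library, and the log2 fold change was 0.55 ± 0.08 (adjusted p = 0.00161). EIF2B2, the beta subunit of the same core, went the other way, at 20.25, 21.05 and 20.02 CPM in the GSK591 libraries, against 31.6, 31.2 and 29.7 CPM in the vehicle libraries. Both groups were tight and far apart, and the log2 fold change of -0.60 ± 0.06 (adjusted p = 0.000506) was the largest fall of any member. EIF2B3, the gamma subunit of the catalytic part, was at 25.9, 29.2 and 27.6 CPM in the GSK591 libraries, against 36.4, 40.4 and 34.1 CPM in the vehicle libraries (log2 fold change -0.42 ± 0.08, adjusted p = 0.0042). EIF2B5, the catalytic epsilon subunit, had a log2 fold change of 0.12 ± 0.05 (adjusted p = 0.0579) with no overlap between groups. EIF2B1, the alpha subunit, had 0.02 ± 0.05 (adjusted p = 0.703), with overlapping groups. The calls of EIF2B2, EIF2B3 and EIF2B4 were kept in all 16 other fits, in which EIF2B2 ran from -0.63 to -0.58, EIF2B3 from -0.48 to -0.36 and EIF2B4 from 0.48 to 0.63.

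**Figure D3:**
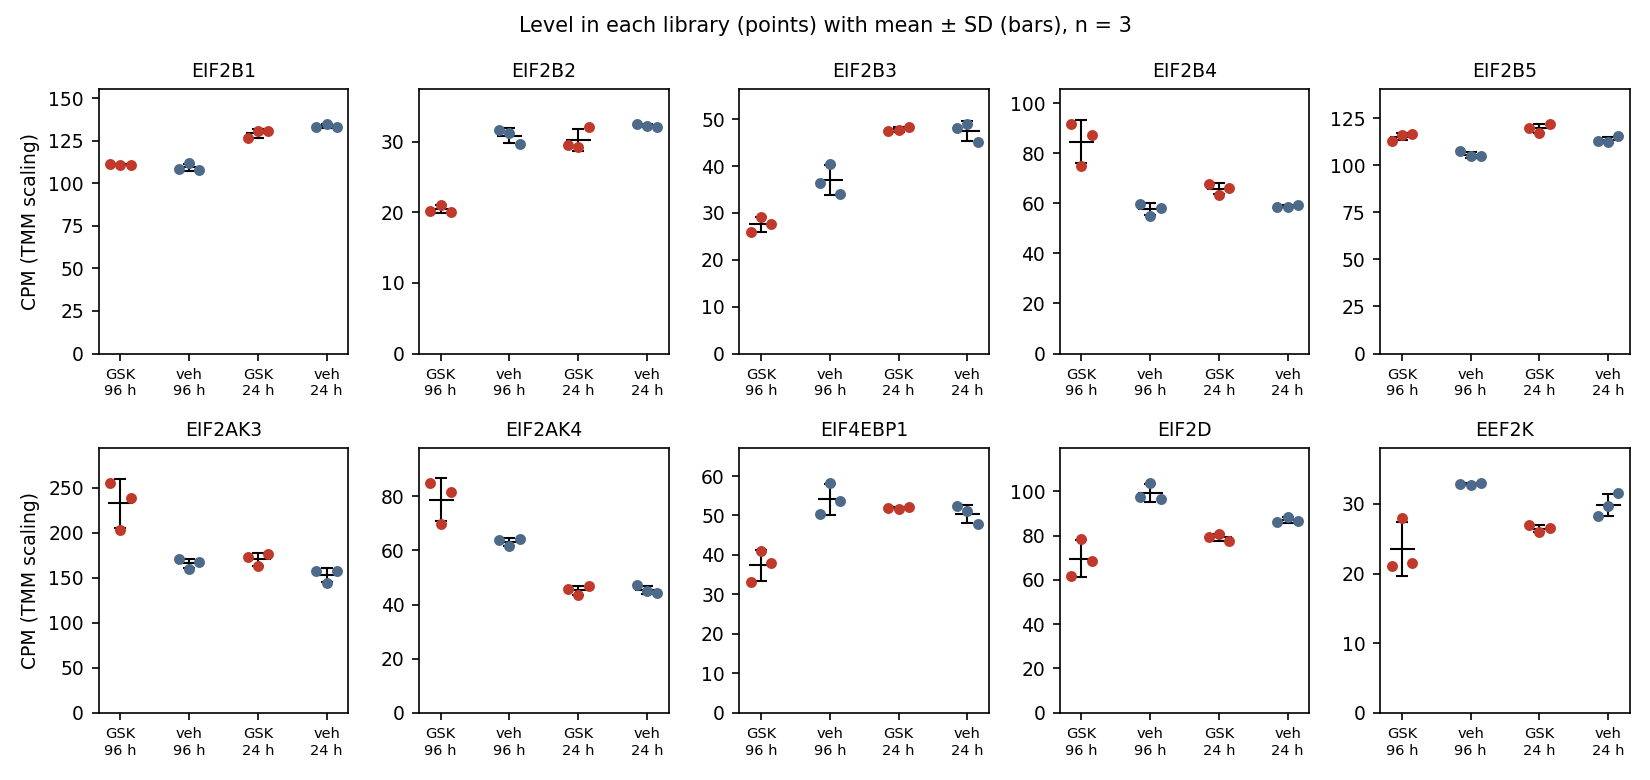
CPM with TMM scaling (y axis) of the 5 eIF2B subunits, EIF2AK3, EIF2AK4, EIF4EBP1, EIF2D and EEF2K in GSK591 (GSK) and vehicle (veh) libraries of each time (x axis); points are libraries and bars are mean ± SD of 3. At 96 h EIF2B4, EIF2AK3 and EIF2AK4 are higher and EIF2B2, EIF2B3, EIF4EBP1, EIF2D and EEF2K lower with GSK591, with no overlap.

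Of the 4 kinases that phosphorylate eIF2 alpha, 2 rose and 2 did not pass the test. EIF2AK3, or PERK, the kinase that senses unfolded protein in the endoplasmic reticulum, was at 255, 203 and 239 CPM in the GSK591 libraries, against 170, 160 and 167 CPM in the vehicle libraries. Its log2 fold change was 0.49 ± 0.08 (adjusted p = 0.00296), a rise of 40%. EIF2AK4, or GCN2, which senses uncharged tRNA, was at 85.0, 69.8 and 81.5 CPM in the GSK591 libraries, against 63.8, 61.6 and 64.1 CPM in the vehicle libraries, a log2 fold change of 0.32 ± 0.07 (adjusted p = 0.0103). GSK591 replicate 2 was the lowest of its group for both kinases and still above every vehicle library. EIF2AK1, the haem-regulated kinase, had -0.05 ± 0.06 and EIF2AK2, the kinase of double-stranded RNA, 0.04 ± 0.09, both with overlapping groups.

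The substrate complex eIF2 lay slightly lower. EIF2S2, its beta subunit, was called with a log2 fold change of -0.23 ± 0.07 (adjusted p = 0.0265), a call lost when GSK591 replicate 1, GSK591 replicate 3 or vehicle replicate 2 was left out, over values from -0.27 to -0.16. EIF2S1, the alpha subunit that carries the regulatory phosphate, was at 101, 101 and 109 CPM in the GSK591 libraries, against 110, 116 and 108 CPM in the vehicle libraries. The groups overlapped and the change of -0.10 ± 0.05 did not pass (adjusted p = 0.155). EIF2S3, the gamma subunit that binds GTP, had -0.21 ± 0.08 (adjusted p = 0.0536). Of the factors that choose the start codon, EIF1AX (-0.31 ± 0.06, adjusted p = 0.00517) and EIF1 (-0.22 ± 0.06, adjusted p = 0.0244) fell, and EIF5 and EIF1B did not pass. The EIF1 call was lost in the same 3 fits, over values from -0.27 to -0.15.

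EIF2D, which can place initiator tRNA on the small subunit and takes part in ribosome recycling, was at 61.8, 78.7 and 68.5 CPM in the GSK591 libraries, against 97.4, 103.9 and 96.3 CPM in the vehicle libraries. It fell by 0.51 ± 0.08 on the log2 scale (adjusted p = 0.00278), and it is 1 of the initiation factor symbols with a TOP start. EIF2A, a separate protein that can also bring initiator tRNA, had 0.13 ± 0.06 (adjusted p = 0.0967).

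Of the 12 measured subunits of the scaffold eIF3, 4 fell and 8 did not pass the test, where 19.6% of all genes were called lower. With 11 of the 12 below 0, they lay around a median log2 fold change of -0.16. The called subunits, named after their values were seen, were EIF3K (-0.36 ± 0.07), EIF3E (-0.33 ± 0.08), EIF3F (-0.23 ± 0.07) and EIF3H (-0.20 ± 0.06). EIF3E stood at 678, 790 and 737 CPM in the GSK591 libraries, against 877, 1024 and 869 CPM in the vehicle libraries. EIF3A and EIF3B, the scaffolding subunits of its core, had -0.11 and -0.06 and were not called, and EIF3G, at 0.10, was the subunit above 0. The calls of EIF3F and EIF3H were lost without vehicle replicate 1, vehicle replicate 2 or GSK591 replicate 1, and that of EIF3H also without vehicle replicate 3 or GSK591 replicate 3. Over all fits EIF3F ran from -0.27 to -0.19 and EIF3H from -0.23 to -0.15.

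The cap-binding machinery itself showed no called change in its main parts. EIF4E, the cap-binding protein, was at 36.8, 32.2 and 37.6 CPM in the GSK591 libraries, against 34.2, 35.5 and 35.1 CPM in the vehicle libraries, a log2 fold change of 0.02 ± 0.07 (adjusted p = 0.797). EIF4G1, its main scaffold, was at 538, 528 and 544 CPM in the GSK591 libraries, against 541, 536 and 548 CPM in the vehicle libraries (-0.01 ± 0.05, adjusted p = 0.833). In both genes the groups overlapped. The sign of the EIF4E value turned without GSK591 replicate 1 (-0.006) or GSK591 replicate 3 (-0.019) and with no filter (-0.01). EIF4A2, the helicase paralogue that passed the level limit, had 0.04 ± 0.05, while EIF4A1, the helicase most cells rely on, was listed at 0 in all 12 libraries. The readthrough symbol SENP3-EIF4A1 held 252 counts over all 12 libraries, so EIF4A1 was not measured by these counts.

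Of the 3 inhibitors and transporters of EIF4E, 1 fell and 2 did not pass. EIF4EBP1, the inhibitor that mTORC1 releases from EIF4E, was at 33.1, 40.9 and 38.1 CPM in the GSK591 libraries, against 50.4, 58.3 and 53.6 CPM in the vehicle libraries. All GSK591 libraries lay below all vehicle libraries, and the log2 fold change was -0.53 ± 0.09 (adjusted p = 0.00267). EIF4EBP2, the related inhibitor, had -0.14 ± 0.05 (adjusted p = 0.0661), and EIF4ENIF1, which carries EIF4E into the nucleus, had 0.13 ± 0.07 (adjusted p = 0.171) with overlapping groups. EIF4E2, a cap-binding protein that represses translation, fell by 0.35 ± 0.07 on the log2 scale (adjusted p = 0.00697). EIF4H, a helicase cofactor, was called at -0.15 ± 0.05 with an adjusted p of 0.0499, which did not hold in 8 of 16 other fits, 5 of them without 1 library (all but GSK591 replicate 2), over values from -0.18 to -0.11.

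Of the remaining initiation symbols, EIF6, which keeps the subunits apart, fell by 0.25 ± 0.05 on the log2 scale (adjusted p = 0.00444). EIF5A, the factor that carries hypusine and helps ribosomes over difficult stretches, fell by 0.24 ± 0.06 (adjusted p = 0.01). EIF5AL1 is near-identical to EIF5A in sequence, and its value of -0.39, from 1.65 to 1.77 CPM in GSK591 libraries and 2.18 to 2.31 CPM in vehicle libraries, is uncertain. Its call was also lost without any 1 library other than GSK591 replicate 2, over values from -0.42 to -0.36. Some symbols in the class do not name initiation factors in the usual sense. EIF4A3, the helicase of the exon junction complex, fell by 0.40 ± 0.07 (adjusted p = 0.0041). EIF2C1 to EIF2C4 are older symbols of the Argonaute proteins of the microRNA pathway, and of these EIF2C3 (Argonaute 3) had the largest rise of any member. It stood at 27.2, 27.9 and 23.5 CPM in the GSK591 libraries, against 17.0, 16.6 and 17.0 CPM in the vehicle libraries, a log2 fold change of 0.64 ± 0.08 (adjusted p = 0.00102). EIF2C2, the main slicing Argonaute, and EIF2C4 had 0.17 and 0.15 and were not called.

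**Figure D4:**
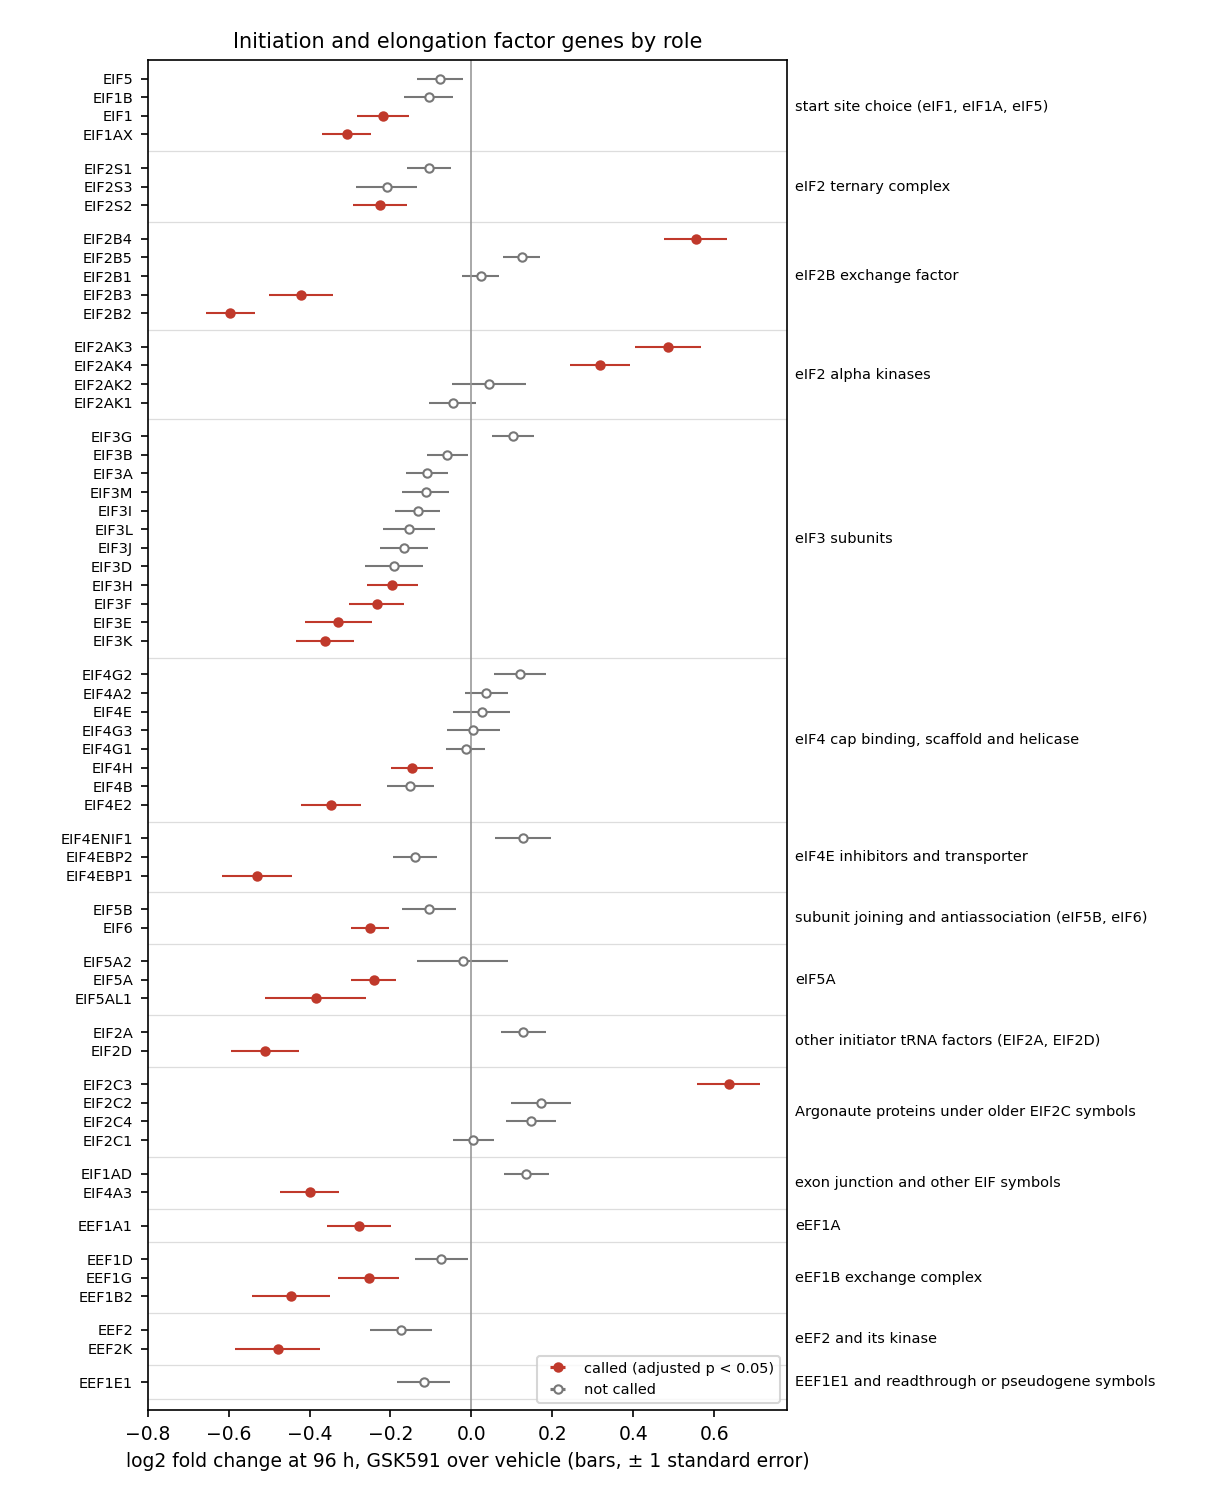
Log2 fold change of GSK591 over vehicle at 96 h (x axis, bars ± 1 standard error) for the 52 initiation and 7 elongation factor symbols, grouped by role (y axis); filled red points passed the test. The eIF2B group holds both EIF2B4 at 0.55 and EIF2B2 at -0.60, while all elongation factor symbols lie below 0.

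All 7 elongation factor symbols lay below 0 at 96 h, with a median log2 fold change of -0.25, and 4 were called lower (57.1%, against 19.6% of all genes) and 0 higher. At an unadjusted p under 0.05 the counts were the same, and DESeq2 also called 4 lower. EEF1A1, which delivers aminoacyl-tRNA and is by count the largest single member, was at 12600, 13640 and 13540 CPM in the GSK591 libraries, against 15570, 17560 and 15110 CPM in the vehicle libraries. No GSK591 library reached the lowest vehicle library, and the log2 fold change was -0.28 ± 0.08 (adjusted p = 0.0222). EEF1B2, a subunit of the complex that recharges eEF1A, was at 616, 751 and 699 CPM in the GSK591 libraries, against 892, 1058 and 865 CPM in the vehicle libraries (-0.45 ± 0.10, adjusted p = 0.00755). Its partner EEF1G fell by 0.25 ± 0.08 (adjusted p = 0.0275), and EEF1D had -0.07 ± 0.06 with overlapping groups. EEF2, which moves the ribosome, was at 5338, 6286 and 5933 CPM in the GSK591 libraries, against 6301, 6924 and 6590 CPM in the vehicle libraries. Its groups were just apart and it did not pass (-0.17 ± 0.08, adjusted p = 0.0997). EEF2K, the kinase that switches eEF2 off, was at 21.1, 28.03 and 21.5 CPM in the GSK591 libraries, against 32.8, 32.8 and 33.0 CPM in the vehicle libraries, a log2 fold change of -0.48 ± 0.10 (adjusted p = 0.00779). The calls of EEF1B2 and EEF2K were kept in all 16 other fits. With GSK591 replicate 1, GSK591 replicate 3 or vehicle replicate 2 left out the count of 4 was 2, since EEF1A1 and EEF1G lost their calls, and EEF1G also lost its call without vehicle replicate 3. Their values ran from -0.33 to -0.21 and from -0.30 to -0.20.

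At 24 h the log2 fold changes were small, with every member between -0.19 and 0.17, and most ribosomal protein genes lay slightly above 0. The median log2 fold change of the 75 ribosomal protein genes was 0.03, 71 lay above 0, and 9 were called higher and 0 lower (0 lower also at an unadjusted p under 0.05, and 9 higher and 0 lower by DESeq2). That is 12% of the class, against 7.44% of all genes called higher and 7.29% lower (14.7% in either direction). With library size alone, 1 was called higher, RPS15, and 54 lay above 0. That scaling set the median of all genes at -0.02 and called 4.27% of them higher and 9.26% lower (13.5% in either direction). Among the called genes were RPL18, RPL23A, RPLP2, RPS9, RPS15, RPS16 and RPS28, with log2 fold changes from 0.06 to 0.09. RPS15, a small-subunit protein near the decoding site, was highest of these, at 622, 620 and 619 CPM in the GSK591 libraries, against 596, 594 and 564 CPM in the vehicle libraries (0.086 ± 0.022, adjusted p = 0.0137). RPS16, also of the small subunit, had 0.076 ± 0.022 (adjusted p = 0.0235). RPS6, RPLP0 and RPL22 had 0.004, 0.017 and 0.002, and the sign of RPS6 and RPL22 turned with library size alone, where RPLP0 was at 0. RPS10 had 0.16 ± 0.06 and RPS2 0.04 ± 0.02, neither called. The count of 9 was 1 without vehicle replicate 1 or GSK591 replicate 2, 14 without vehicle replicate 2, 0 without vehicle replicate 3 or GSK591 replicate 1, and 3 without GSK591 replicate 3. It was also 0 in a fit of all 12 libraries, where the biological coefficient of variation was 5.9%. No member kept a 24 h call there, and 0.11% of all 13665 genes were called higher and 0.102% lower. Over the fits without 1 library, 3.52 to 8.41% of all genes were called higher.

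Of the initiation factor symbols, 7 were called higher (13.5%, against 7.44% of all genes) and 2 lower (3.85%, against 7.29%) at 24 h. With library size alone 3 were called higher (5.77%, against 4.27% of all genes) and 5 lower (9.62%, against 9.26%). EIF2B4 was at 67.8, 63.4 and 66.0 CPM in the GSK591 libraries, against 58.6, 58.5 and 59.3 CPM in the vehicle libraries, so that the groups were already apart. Its log2 fold change was 0.16 ± 0.03 (adjusted p = 0.0016), followed by EIF2AK3 with 0.16 ± 0.03 (adjusted p = 0.00426). EIF1AD, a protein related to eIF1A by name and sequence, had 0.14 ± 0.03 (adjusted p = 0.00655). EIF2D, at 79.5, 80.5 and 77.5 CPM in the GSK591 libraries, against 86.4, 88.6 and 86.4 CPM in the vehicle libraries, fell by 0.14 ± 0.03 (adjusted p = 0.00214). EIF2C4 fell by 0.19 ± 0.05 (adjusted p = 0.0105). The other 4 called symbols, EIF3G, EIF2A, EIF4A2 and EIF5A, had 0.066 to 0.080, and all 4 lost their calls with library size alone, without vehicle replicate 1, without GSK591 replicate 1 and without GSK591 replicate 3. Of the followed members that did not pass, EIF4EBP1, EIF4G1, EIF2S1, EIF4E and EIF2AK4 lay between -0.01 and 0.04. The count of 9 was 5 without vehicle replicate 1 or GSK591 replicate 3 and 4 without GSK591 replicate 1. Among these, the EIF2C4 call was lost without GSK591 replicate 1 (-0.16) or GSK591 replicate 3 (-0.17).

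Among elongation factors at 24 h, EEF2K fell by 0.17 ± 0.04 on the log2 scale (adjusted p = 0.00853), at 27.0, 25.9 and 26.5 CPM in the GSK591 libraries, against 28.3, 29.8 and 31.5 CPM in the vehicle libraries. EEF1D, a subunit of the exchange complex, rose by 0.079 ± 0.021 (adjusted p = 0.0166). EEF1A1 and EEF2 had 0.005 and 0.038 and were not called, and EEF1A1 was at -0.013 with library size alone. Of the 7 symbols, 14.3% were called higher and 14.3% lower, against 7.44% and 7.29% of all genes. The count of 2 was 1 with library size alone, 1 without vehicle replicate 1 or GSK591 replicate 1, where EEF1D lost its call (0.067 and 0.072), and without vehicle replicate 3, where EEF2K did (-0.13).

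**Figure D5:**
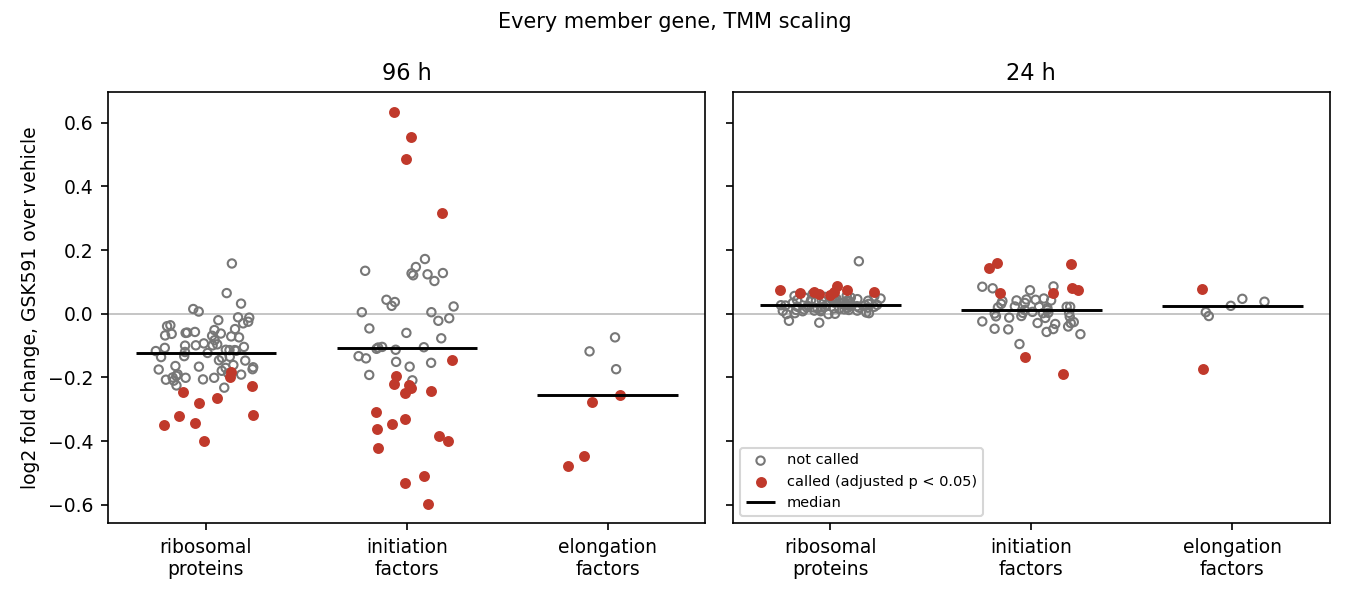
Log2 fold change of GSK591 over vehicle (y axis) of every member by class (x axis) at 96 h (left) and 24 h (right); filled points passed the test and lines are medians. The class medians are -0.12, -0.11 and -0.25 at 96 h and 0.03, 0.01 and 0.03 at 24 h.

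Whether the effect of GSK591 differed between the times was tested as the 96 h log2 fold change minus that at 24 h, each against the vehicle of its own time. Ribosomal proteins had 16 genes with a lower effect at 96 h and 0 with a higher one (43 and 0 at an unadjusted p under 0.05, and 25 and 0 by DESeq2), or 21.3% of the class, while 13.2% of all 13665 genes were called lower and 11% higher (24.1% in either direction). The median difference was -0.18. RPL14 had a difference of -0.42 ± 0.10 (adjusted p = 0.0106), from -0.40 at 96 h and 0.008 at 24 h. RPL10 had -0.39 ± 0.08 (adjusted p = 0.00419), with -0.35 at 96 h and 0.022 at 24 h. RPS14 had -0.38 ± 0.10 (adjusted p = 0.0205), a call lost without vehicle replicate 3 (-0.36) or GSK591 replicate 2 (-0.36) of 24 h. The count of 16 was 4 without either of these libraries. Without vehicle replicates 1 or 2 at 24 h it was 7 and 8, without GSK591 replicates 1 or 3 at 24 h 8 and 6, without GSK591 replicate 1 or vehicle replicate 2 at 96 h 6 and 10, and without GSK591 replicate 2 or vehicle replicate 3 at 96 h 33 and 29. Over the fits without 1 library, 7.88 to 21.3% of all genes were called lower.

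Initiation factor symbols had 19 lower effects at 96 h (36.5%, against 13.2% of all genes) and 5 higher ones (9.62%, against 11%). EIF4EBP1 differed most, by -0.58 ± 0.10 (adjusted p = 0.00155), with -0.53 at 96 h and 0.042 at 24 h. EIF2B2 differed by -0.52 ± 0.07 (adjusted p = 0.000541) and EIF2B3 by -0.45 ± 0.09 (adjusted p = 0.00354). In the other direction EIF2C3 differed by 0.54 ± 0.08 (adjusted p = 0.00116) and EIF2B4 by 0.38 ± 0.09 (adjusted p = 0.0101), with 0.55 at 96 h and 0.16 at 24 h. EIF2C4 had 0.15 at 96 h and -0.19 at 24 h, a difference of 0.32 ± 0.07 (adjusted p = 0.00791). The kinases EIF2AK3 and EIF2AK4 also had higher effects at 96 h, by 0.32 ± 0.10 and 0.31 ± 0.09. EIF2AK3 lost this call in 9 of 12 fits without 1 library and EIF2AK4 in 6 of 12, over values from 0.24 to 0.41 and from 0.25 to 0.40. EIF5A had -0.24 at 96 h and 0.066 at 24 h, called in both, with a difference of -0.32 ± 0.06 (adjusted p = 0.00234). The count of 24 was 13 without vehicle replicate 1 of 24 h, 14 without GSK591 replicate 2, and 15 without GSK591 replicate 3 or vehicle replicate 3, all of 24 h. Of the elongation factors, EEF1B2 (-0.45 ± 0.10, adjusted p = 0.00819), EEF1A1 (-0.30 ± 0.08, adjusted p = 0.0171), EEF1G (-0.29 ± 0.08, adjusted p = 0.0183) and EEF2 (-0.23 ± 0.08, adjusted p = 0.0461) had lower effects at 96 h. EEF2 lost this call in 9 of 12 fits without 1 library, over values from -0.27 to -0.17, and also with library size alone.

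Other genes of the pathway were counted in 4 lists chosen by role, to be read against the 20.7% of all genes called higher and the 19.6% called lower at 96 h. Of 9 tested paralogues, fused forms and partners of ribosomal proteins, 3 were called lower at 96 h (33.3%): RPL39L (-0.86 ± 0.15), RPL26L1 (-0.42 ± 0.10) and RPS27L (-0.35 ± 0.09). Of 22 cytosolic aminoacyl-tRNA synthetases and their scaffold proteins, 9 were called lower (40.9%) and 1 higher (4.55%). WARS, which charges tryptophan tRNA, had -0.42 ± 0.09, QARS, which charges glutamine tRNA, -0.36 ± 0.07, and HARS, which charges histidine tRNA, was the gene called higher at 0.15 ± 0.05. The 21 regulators around mTORC1, S6 kinase and TOP mRNAs split, with 6 called higher (28.6%) and 4 lower (19%). AKT1S1, an inhibitor of mTORC1, rose by 0.58 ± 0.07 and TSC1, part of the complex that restrains it, by 0.50 ± 0.07, while MLST8, a subunit of mTORC1, had -0.51 ± 0.07 and TBC1D7, the third partner of TSC1 and TSC2, -0.65 ± 0.11. MTOR and RPTOR stood at 0.008 and -0.02 and LARP1 at -0.11, none called. DHPS, the enzyme that starts hypusine formation on EIF5A, rose by 0.34 ± 0.05. Of 14 termination, recycling and poly(A)-binding genes, 3 were called higher (21.4%) and 2 lower (14.3%), with LTN1, a ubiquitin ligase for stalled chains, at 0.39 ± 0.06 and PABPC1, the main cytoplasmic poly(A)-binding protein, at -0.33 ± 0.08. At 24 h the called numbers in the same order of lists were 2 higher and 1 lower, 2 and 0, 3 and 1, and 2 and 1, where 7.44% of all genes were called higher and 7.29% lower.

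The authors' deposited table for 96 h had 16 ribosomal protein genes lower at an adjusted p under 0.05 and 0 higher, of which 10 were among the 11 called here. For initiation factor symbols the authors' deposited table had 16 lower and 4 higher, with 15 and 4 shared, and for elongation factors 4 lower, all shared. At 24 h the authors' deposited table had no ribosomal protein gene past that threshold, 3 initiation symbols higher and 5 lower, and 1 elongation factor lower. Its median log2 fold changes by class equalled those obtained here with library size alone.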

How the data were processed

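Poly(A) mRNA was sequenced from SUDHL6 cells in 4 groups of 3 libraries. For each time the authors deposited a table of unnormalized read counts by gene symbol. The submitters' processing notes name STAR, HTSeq, edgeR and hg19 (GRCh37). Their versions, the annotation and the strand setting were not given in the sources used here, so reads of overlapping or antisense genes cannot be told apart. The authors also deposited tables of log2 fold changes, p-values and adjusted p-values, per the file headers.

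Depth ran from 48.5 to 64.4 M counts, and 547.9 M in vehicle replicate 1 at 96 h, which was also thinned as an alternative. Each time was fitted alone with its 6 libraries: genes kept by filterByExpr, TMM factors, and the quasi-likelihood test of edgeR 4.0.16 in R 4.3.3. P-values were two-sided and adjusted over all genes tested by Benjamini-Hochberg, with a threshold of 0.05. The difference between the times used all 12 libraries with 4 group means. A standard error is the size of the log2 fold change divided by the square root of F. CPM of single genes used TMM factors of the libraries of 1 time.

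Other fits used library size alone, other scaling factors (RLE, or TMM from the other genes), DESeq2 1.42.0, other filters, a replicate block, all 12 libraries at once, the thinned library, both 96 h libraries numbered 2 left out, and each library left out in turn. The test was checked on counts simulated from its own model, with changes larger than those of most members. That check does not cover smaller changes or departures from the model. No pair of libraries agreed within sampling noise, so all 12 were kept. Sequences are from RefSeq (GRCh38.p14) and coding lengths from GENCODE v29.

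Members, lists and tests were chosen with earlier results of these data known. Named genes were a fixed set of members plus, per class and comparison, the 3 called with the largest rise and the 3 with the largest fall whose groups did not overlap (for the difference, without that condition); any other gene named was chosen after its values were seen. Some genes are counted but not reported by name here.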

Additional observations from a re-analysis of the deposited data

Results flagged for a closer look

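The effect of GSK591 differed between 96 h and 24 h, by a test of the difference itself, in 16 ribosomal protein genes, 24 initiation factor symbols and 4 elongation factor symbols, or 21.3%, 46.2% and 57.1% of the classes, where 24.1% of all genes were called. Among the genes named by rule, the difference (96 h effect minus 24 h effect, log2) was -0.42 for RPL14, -0.39 for RPL10 and -0.38 for RPS14. It was -0.58 for EIF4EBP1, -0.52 for EIF2B2 and -0.45 for EIF2B3, and 0.54 for EIF2C3, 0.38 for EIF2B4 and 0.32 for EIF2C4. For elongation factors it was -0.45 for EEF1B2, -0.3 for EEF1A1 and -0.29 for EEF1G. The times were deposited as separate tables with separate vehicle libraries, and time and any difference in handling between the tables cannot be told apart beyond what each vehicle cancels.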

How the results depend on the processing

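Called counts depended on the fit most for ribosomal proteins, and the share of all genes called also moved between fits. At 96 h their 11 calls were 19 with DESeq2, 23 with no filter, 28 with the replicate block, 40 with all 12 libraries in 1 fit (initiation symbols 36) and 26 without both libraries numbered 2, where 1 of them was higher. RLE factors and the thinned library each left 14.7% of ribosomal protein genes called lower, as in the fit with 11 calls. TMM factors from the other genes gave 17.3% and a filter at 5 CPM 13.3%. Leaving out 1 library gave 4 to 25 ribosomal, 15 to 27 initiation and 2 to 5 elongation calls. Of all genes, 20.1% were called lower with DESeq2, 16.1% with no filter, 23% with the block and 28.3% with all 12 libraries. Without both libraries numbered 2 it was 30.2%. Leaving out 1 library gave 12 to 28.1%, against 19.6% in the fit with 11 ribosomal calls. At 24 h the 9 ribosomal calls were 1 with library size alone, 14 with no filter and 4 with a CPM of at least 5. Of all genes, 4.27, 6.35 and 8.75% were called higher in these fits. All 12 libraries in 1 fit gave 0 for each class, where 0.11% of all genes were called higher and 0.102% lower. At an unadjusted p under 0.05 that fit gave 1 ribosomal, 5 initiation and 0 elongation symbols. Library size alone gave 1 elongation call. Leaving out 1 library gave 0 to 14 ribosomal, 4 to 8 initiation and 1 to 2 elongation calls at 24 h. In these fits 3.52 to 8.41% of all genes were called higher and 3.81 to 8.2% lower. For the difference between the times, the 16 ribosomal calls were 25 with DESeq2, 26 with no filter, 28 with the replicate block and 38 without both 96 h libraries numbered 2. Of all genes, 14.8, 10.4, 16.9 and 23.3% were called lower in the same order. Leaving out 1 library gave 4 to 33 ribosomal, 13 to 29 initiation and 3 to 6 elongation calls, with 7.88 to 21.3% of all genes lower. The biological coefficient of variation was 5.9% in the 12-library fit, against 8.19% at 96 h and 2.35% at 24 h alone. The cause of the other shifts was not tested.

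The replicate numbers were not taken as pairs. Deviations of same-numbered libraries correlated at 0.42, 0.3 and 0.02 at 96 h and 0.02, 0.21 and 0.05 at 24 h. At 96 h each GSK591 library correlated best with the vehicle library of its own number, though for replicate 3 at only 0.02, against 0 and -0.01. Seen from the vehicle side, vehicle replicate 3 at 96 h correlated more with GSK591 replicate 1 (0.26) than with GSK591 replicate 3 (0.02). At 24 h not every GSK591 library correlated best with its own number. With the replicate block, 37.3% of ribosomal protein genes were called lower at 96 h, against 23% of all genes. Without it the shares were 14.7% and 19.6%. Called at 24 h under the block were 11 ribosomal, 11 initiation and 2 elongation symbols, where 10.9% of all genes were called higher and 10.4% lower.

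With library size alone the sign turned in 26 of the 134 members at 24 h (17 of them ribosomal), in 0 at 96 h and in 6 for the difference, 0 of them called. Among the genes followed by name these were EEF1A1, RPL22 and RPS6 at 24 h (-0.013, -0.016 and -0.014), with RPLP0 at 0. The values changed sign or reached 0 for EEF1A1, RPL22 and RPS6 with a CPM of at least 5 (0, -0.004 and -0.002). Leaving out 1 library gave values on both sides of 0 at 24 h for EEF1A1 (-0.009 to 0.022), RPL22 (-0.024 to 0.019), RPS6 (-0.017 to 0.02), EIF2AK4 (-0.031 to 0.023) and EIF4E (-0.032 to 0.025), and at 96 h for EIF4E (-0.019 to 0.087), which was -0.01 with no filter. No direction of a called gene turned in the fits run. Kept in every fit were the calls of 15 initiation, 4 ribosomal and 2 elongation symbols at 96 h and none at 24 h. Of all genes, 0.11% were called higher and 0.102% lower at 24 h with all 12 libraries in 1 fit.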

Other observations

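The vehicle libraries themselves differed between the times, which no comparison above uses. With all 12 libraries on a common TMM scale, 35 of the 52 initiation factor symbols lay lower in every vehicle library of 96 h than in every vehicle library of 24 h, and 5 lay higher (67.3% and 9.62%, against 30.3% and 30.8% of all 13665 genes tested), with a median log2 ratio of 96 h over 24 h of -0.17. EIF4G1, the scaffold of cap binding, averaged 531 ± 4.0 CPM at 96 h and 768 ± 5.8 CPM at 24 h (SD, n = 3 each). EIF5A averaged 465 ± 19 CPM at 96 h and 658 ± 7.0 CPM at 24 h. EIF2AK4 went the other way, with 61.9 ± 1.2 CPM at 96 h and 46.7 ± 1.5 CPM at 24 h. Ribosomal protein genes had a median ratio of 0, and 6 of 75 lay lower and 3 higher in every 96 h vehicle library (8% and 4%); RPS26 averaged 132 ± 7.8 CPM at 96 h and 196 ± 5.4 CPM at 24 h. These values were not tested, and culture time and any difference in handling between the separately deposited tables cannot be told apart.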
